A study of Mus musculus with 5 samples.

Results

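T and natural killer (NK) cells were a small population of the synovial sarcoma (SyS) tumors profiled by single cell RNA sequencing, with 320 of the 45146 cells that passed filtering (0.709%, 95% exact binomial interval 0.634 to 0.791). The cells were chosen by measured counts of unique molecular identifiers (UMIs, each standing for a counted RNA molecule), with at least 2 of 8 marker transcripts detected, namely those of the T cell receptor genes *Cd3d*, *Cd3e*, *Cd3g* and *Trbc2*, the NK receptor genes *Ncr1* and *Klrb1c* and the cytotoxic granule genes *Nkg7* and *Gzma*. A cell also needed at most 3 UMIs of the macrophage genes *C1qa*, *C1qb* and *C1qc* together, none of the endothelial gene *Cdh5* and fewer than 5 of *Adgrb3*, a gene of the SyS cells. These genes chose the cells, so their levels describe the selection and are not results. Cells were counted among the 51670 called by the authors' pipeline when they held at least 500 genes and at most 25% mitochondrial UMIs.

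The 5 tumors arose in *hSS2* mice, in which Cre switches on the human *SS18::SSX2* fusion from the *Rosa26* locus, and were harvested at morbidity. For spontaneous tumors of this model the study describes TATCre protein injected into the limb at 8 days of age, so the cell of origin is not set by a promoter. All 5 share the fusion, and no normal tissue or untreated animal was among the samples, so no control level is given. A piece of each tumor was stained to name its phenotype, biphasic (BP, with epithelial structures beside spindle cells, 2 tumors), monophasic (MP, spindle cells, 1), MP+BP (1) or PD+MP (poorly differentiated and monophasic, 1). Mice of both sexes and a mixed CB57Bl/6-svJ strain, 2 to 6 months old, are described for the study, and the age and sex behind each tumor are not in the labels. The leading number shared by both BP titles was not explained, so whether they came from different mice is unknown.

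Cytotoxic lymphocytes recognize tumor cells in different ways. T cells read peptides on major histocompatibility proteins through a clonally rearranged receptor, which signals through the CD3 chains and is helped by the coreceptors CD4 or CD8. NK cells lack that receptor and balance germline-encoded activating receptors, which signal through small adapters such as FcRγ (*Fcer1g*) and DAP12 (*Tyrobp*), against inhibitory ones, and both cell types kill with perforin and granzymes. SyS is known as a tumor with few infiltrating lymphocytes.

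The DNA in front of 4 genes of these lineages is printed here because lymphocyte genes are known to be controlled by RUNX and ETS family factors. *Cd3d* and *Ncr1* set the gates used here, *Gzma* was among the selecting markers and *Fcer1g* was measured independently of both. Each sequence is the RefSeq stretch of 250 bases up to the gene's start on build GRCm38.p6, read 5′ to 3′ on the gene's strand. Capitals mark the RUNX letters TGTGGT and the ETS letters AGGAAG on either strand.
*Cd3d* (chr9:44981536-44981785, plus strand): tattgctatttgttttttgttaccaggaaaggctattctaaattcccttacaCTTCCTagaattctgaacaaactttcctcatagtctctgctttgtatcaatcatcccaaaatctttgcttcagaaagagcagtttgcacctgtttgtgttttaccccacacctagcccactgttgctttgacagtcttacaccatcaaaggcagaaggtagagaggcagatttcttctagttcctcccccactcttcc
*Ncr1* (chr7:4337465-4337714, plus strand): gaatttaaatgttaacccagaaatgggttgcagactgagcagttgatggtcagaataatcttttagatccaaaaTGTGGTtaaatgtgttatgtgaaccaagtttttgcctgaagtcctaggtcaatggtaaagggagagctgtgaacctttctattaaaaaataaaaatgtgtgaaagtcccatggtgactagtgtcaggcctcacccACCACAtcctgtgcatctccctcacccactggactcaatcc
*Gzma* (chr13:113100982-113101231, minus strand): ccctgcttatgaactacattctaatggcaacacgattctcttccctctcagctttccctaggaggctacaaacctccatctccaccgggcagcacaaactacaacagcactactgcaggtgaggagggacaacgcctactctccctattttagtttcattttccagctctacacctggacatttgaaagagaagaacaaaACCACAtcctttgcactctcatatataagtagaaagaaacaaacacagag
*Fcer1g* (chr1:171234350-171234599, minus strand): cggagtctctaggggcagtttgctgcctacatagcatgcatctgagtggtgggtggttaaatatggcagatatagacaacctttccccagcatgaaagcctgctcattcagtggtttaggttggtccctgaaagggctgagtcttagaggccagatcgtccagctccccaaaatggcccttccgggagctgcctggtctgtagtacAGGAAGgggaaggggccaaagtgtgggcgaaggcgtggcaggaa
A RUNX match began 176 and 41 bases before the *Ncr1* start, the first of 2 starts listed for that gene, and 50 bases before the *Gzma* start. An ETS match began 198 bases before the *Cd3d* start and 44 bases before the *Fcer1g* start. Among 27025 mouse promoters of this length, 14.2% held the RUNX and 29.2% the ETS letters on either strand, so single matches are common. They describe these letters only.

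The share of T and NK cells was similar in 4 tumors and lower in the remaining BP tumor. BP replicate 1 gave 61 of 7227 cells (0.844%, interval 0.646 to 1.08), and BP replicate 2 gave 31 of 10813 (0.287%, 0.195 to 0.407). MP held 73 of 8276 (0.882%), MP+BP 83 of 9882 (0.840%) and PD+MP 72 of 8948 (0.805%). The interval of BP replicate 2 lay below those of the other 4 tumors, while theirs overlapped, and the BP replicates differed 2.94-fold. These intervals cover counting error only. Relative to 100 macrophages (cells with at least 10 C1q UMIs), the T and NK cells numbered 7.84, 3.53, 19.2, 18.1 and 10.4 for BP replicates 1 and 2, MP, MP+BP and PD+MP. The lowest value was again in BP replicate 2, but MP and MP+BP stood above BP replicate 1 and PD+MP on this scale.

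The 3 tumors with BP in the label averaged 0.657% ± 0.321 (SD, n = 3) and the 2 without it 0.843% ± 0.0547 (SD, n = 2). An exact two-sided permutation test gave p = 0.6 (adjusted p = 0.6 over 2 such tests), and with 3 tumors against 2 it cannot go below 0.2. Without BP replicate 2 the difference shrank from -0.186 to -0.00137 percentage points.

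**Figure D1:**
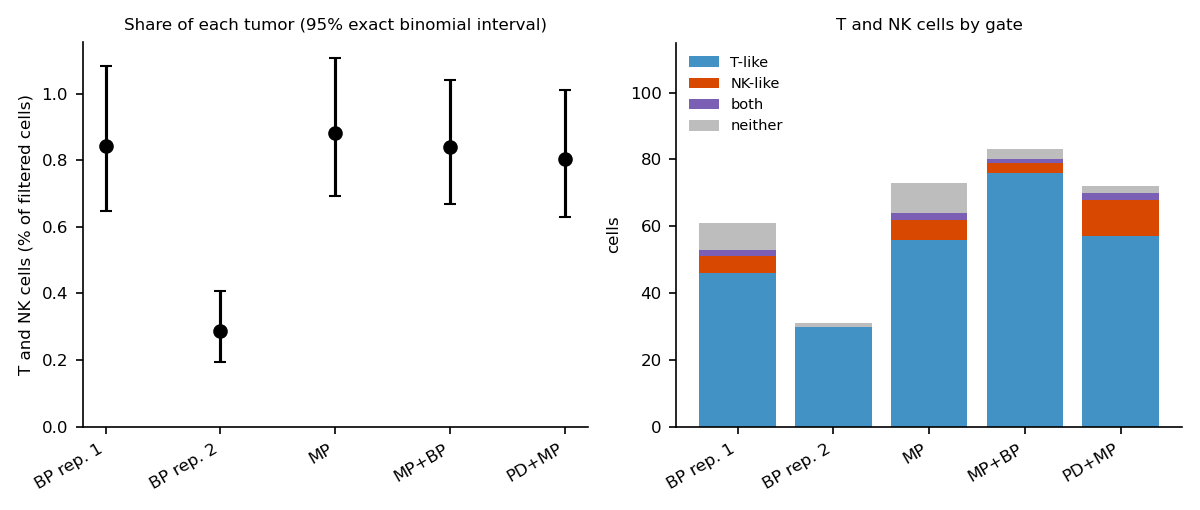
Left, share of T and NK cells among filtered cells of each tumor in percent, with 95% exact binomial intervals; right, number of these cells by gate (T-like, NK-like, both, neither). BP replicate 2 has the lowest share (0.287%) and no NK-like cell.

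Among the selected cells, T-like cells outnumbered NK-like cells in every tumor. A cell was called T-like with at least 1 UMI of *Cd3d*, *Cd3e* or *Cd3g* and none of *Ncr1* or *Klrb1c*, and NK-like with the reverse. By this gate 265 cells (82.8%) were T-like, 25 (7.81%) NK-like, 7 (2.19%) had UMIs of both gene groups and 23 (7.19%) of neither. BP replicates 1 and 2, MP, MP+BP and PD+MP held 46, 30, 56, 76 and 57 T-like cells and 5, 0, 6, 3 and 11 NK-like cells. The 0 of 30 in BP replicate 2 allows an NK-like share of up to 11.6% (exact upper bound).

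The T-like share of T-like and NK-like cells was 95.5% ± 4.94 (SD, n = 3) with BP in the label and 87.1% ± 4.60 (SD, n = 2) without it. PD+MP was lowest at 83.8% (interval 72.9 to 91.6) and BP replicate 2 highest at 100% (88.4 to 100), and their intervals overlap. The share leaves out the cells of neither group (8, 1, 9, 3 and 2 by tumor), so this order holds for the gate only. Most of these cells held NK receptor or adapter genes, as given below. The exact two-sided permutation test gave p = 0.4 (adjusted p = 0.6).

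Cells of neither group could enter only through at least 2 of *Nkg7*, *Gzma* and *Trbc2*, which 23, 20 and 5 of the 23 held. Of genes outside the rule, the adapter genes *Fcer1g* and *Tyrobp* were detected in 17 and 16 of them, and *Klrd1*, the CD94 receptor chain, in 12. At least 2 of 9 NK receptor and adapter genes were found in 20 of the 23 cells (7, 1, 9, 2 and 1 by tumor). The same held for all 25 NK-like cells and for 33 of 265 T-like cells. Their median of 1568 UMIs per cell was lower than the 2376 of T-like and 2304 of NK-like cells. Markers of mast cells summed to 1438 CPM (UMIs of a gene per 1000000 UMIs of the summed cells) in these 23 cells against 57.5 in T-like and 22.3 in NK-like cells. A single MP cell gave 93.3% of that sum, which was 98.5 CPM without it. The 23 cells were left out of the comparison of T-like with NK-like cells.

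Markers of most other cell types were low in the selected cells. Among 8 macrophage markers 7 had a UMI, with a summed level of 10.3 to 187 CPM across tumors against 21190 in macrophages, and *Mrc1* was at 0. Of 4 B and plasma cell markers 1 had a UMI (*Cd79a*, *Ms4a1* and *Jchain* were at 0), and 3 of 4 neutrophil markers reached 0 to 15.3 CPM with *Retnlg* at 0. The 6 markers of SyS cells summed to 47.9 to 186 CPM. Uneven values came from fibroblast markers, at 2539 CPM in PD+MP, of which 1 cell gave 52.0%, from dendritic cell markers, at 947 CPM in BP replicate 2 and 368 CPM in BP replicate 1, and from mast cell markers, at 332 CPM in MP. A single cell gave 93.7%, 93.1% and 87.5% of the last 3 values, and without it they were 66.0, 26.4 and 41.7 CPM. Fibroblast markers in PD+MP stayed at 1310 CPM without their top cell, against 280 CPM in SyS cells and 74.9 CPM in macrophages. The top cell held 297 of the 571 fibroblast marker UMIs there, and a T-like cell held another 268. Nearly all of this signal thus came from those cells, and without that T-like cell the pooled T-like cells had 43.0 CPM. Pericyte markers reached 232 CPM in MP+BP, 93.3% from 1 cell, and 205 CPM in PD+MP. Erythroid markers reached 209 CPM in BP replicate 1. The part of these transcripts in the tumor differences below was not tested. Of 235 barcodes that occurred in more than 1 tumor, 2 involved a selected cell, and none was selected in both tumors.

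At the limits of the rule, 131 otherwise eligible cells with 1 marker were left out, while 72 with 2 markers, 106 with 3, 90 with 4 and 52 with 5 were kept. Of the cells left out, 29 held only *Ncr1* and 6 only *Klrb1c*, against 25 NK-like cells kept. Another 15, 14 and 15 held only *Cd3d*, *Cd3e* or *Cd3g*, against 265 T-like cells kept. The part of this limit in the T-like share was not tested. The C1q limit removed 5 cells, the *Cdh5* limit 6 and the *Adgrb3* limit 23, and 286 of the 320 kept cells had no *Adgrb3* UMI. Doublet scores placed 11 of the 320 cells among the expected doublets of their tumor, and these were kept. The selected cells had a median of 2265.5 UMIs, against 5229 in macrophages and 10609 in SyS cells, so fewer transcripts per cell were seen in them than in their neighbors.

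NK-like and T-like cells were compared as summed counts within each tumor, to show what else separates cells gated on 5 transcripts. The 4 tumors with at least 3 NK-like cells entered this comparison, with 235 T-like and 25 NK-like cells and 648135 and 89537 UMIs. Of 1834 genes tested, 98 (5.34%) were called, and 63 (3.44%) were higher in T-like and 35 (1.91%) higher in NK-like cells at an adjusted p under 0.05 (edgeR quasi-likelihood test with the tumor as block), with the selecting genes left out. The median log2 fold change over all tested genes was 0.12 toward T-like cells, and the directions below hold relative to it. Without library scaling beyond total counts the median was -0.13 and the split 48 higher to 58 lower. Without BP replicate 1 the counts were 35 and 21, and without MP+BP 37 and 26.

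The called T cell receptor and lineage genes were all higher in T-like cells. Of 16 listed genes 8 passed the filter on low counts, 5 were called higher and none lower, with a median log2 fold change of 3.21 (2.99 with genes absent from NK-like cells at their lower bound). *Icos* (chr1:60977927-61000320; this and later gene positions are on GRCm38), a costimulatory receptor of activated T cells, had 791, 357, 508 and 565 CPM in T-like cells of BP replicate 1, MP, MP+BP and PD+MP. No NK-like cell held an *Icos* UMI, which makes its level at least 16.4-fold higher in T-like cells against a floor of 3 counts over the group (adjusted p = 1.63e-10, edgeR). *Themis*, a regulator of T cell receptor signaling in thymic selection, was at least 8.80-fold higher (edgeR adjusted p = 1.77e-06) and also at 0 in NK-like cells.

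*Bcl11b*, a transcription factor of T lineage commitment, had 292, 338, 393 and 358 CPM in T-like cells and 0, 0, 0 and 54.5 CPM in NK-like cells of the same 4 tumors. The measured values did not overlap. In MP+BP the NK-like sum held 5294 UMIs, so its count of 0 does not settle the direction there. The ratio per UMI was 10.4 with a counting interval of 3.50 to 50.6 (edgeR adjusted p = 6.33e-05). *Trac*, the constant segment of the receptor α chain, had 178 UMIs in T-like cells and 1 in NK-like cells, a ratio per UMI of 24.6 with a counting interval of 4.36 to 977. *Skap1* (log2 fold change 0.97 ± 0.40) and *Trbc1* (0.87 ± 0.54) did not pass the test, and *Trbc1* reads can be split uncertainly from the near-identical *Trbc2*. After a log2 fold change, here and below, ± gives a standard error derived from the edgeR test statistic, not an SD over tumors.

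Single genes of other lists, *Il7r*, *Cxcr6* and *Rora*, were also called higher in T-like cells. *Il7r* (chr15:9505788-9530176), the receptor for interleukin-7, which keeps naive and memory T cells alive, was at 0 in NK-like cells and at 681, 846, 240 and 517 CPM in T-like cells, at least 16.8-fold higher (edgeR adjusted p = 1.33e-10). *Cxcr6*, a chemokine receptor of resident lymphocytes, had 201, 163, 213 and 145 CPM in T-like cells and no UMI in NK-like cells, at least 5.43-fold higher (edgeR adjusted p = 0.000369). It was the only called gene among 3 tested of 7 tissue residency genes. *Il7r* was the only called gene among 5 tested of 9 naive and memory genes, whose median log2 fold change was 0.28. *Rora*, a nuclear receptor of innate-like and helper T cells, had 338 UMIs against 2, a ratio of 23.3 (6.41 to 194). In its list of 17 γδ and innate lymphoid genes 2 were tested, and only *Rora* was called.

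*Ltb*, which encodes lymphotoxin β, was higher by 2.73 ± 0.67 and *Ikzf2*, which encodes Helios, by 1.85 ± 0.50 on the log2 scale (edgeR adjusted p = 0.0022 and 0.0069). Both calls were lost without BP replicate 1, and that of *Ikzf2* also without PD+MP. Of 5 tested cytokine and chemokine genes only *Ltb* was called higher in T-like cells, and 3 were called lower. *Ikzf2* was the only called gene of 2 tested in the regulatory T cell list. Outside the lists, among the largest called differences in the same direction in all 4 tumors were those of *Igf1r*, *Slco3a1* and *Fam169b*, at 0 in NK-like cells and at least 7.0-, 3.55- and 4.10-fold higher in T-like cells. They were followed by *Camk4* (a calcium-dependent kinase, 35.3-fold per UMI, counting interval 9.72 to 292), *Sntb1*, *Tbc1d4*, *S100a4*, *Samhd1* and *Thy1*, the last not called without BP replicate 1. *S100a4*, a calcium-binding protein of effector and memory cells, had 705 UMIs in T-like and 7 in NK-like cells, a log2 fold change of 3.95 ± 0.53 (edgeR adjusted p = 1.63e-10).

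**Figure D2:**
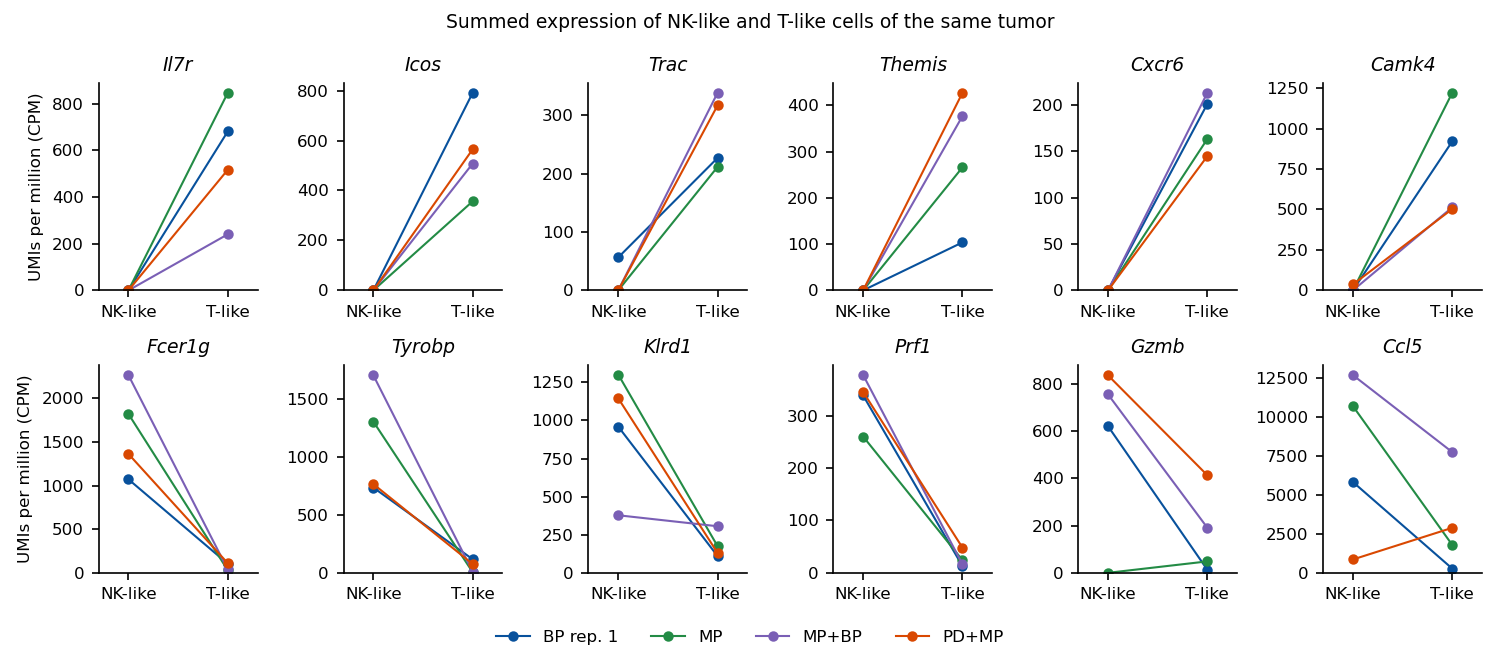
Level of 12 genes in CPM (linear axes from 0) in summed NK-like and T-like cells; lines join both classes of a tumor. The measured values of the upper row are higher in T-like cells of all 4 tumors, and any NK-like level of 0 in MP+BP rests on 5294 UMIs. In the lower row *Gzmb* in MP and *Ccl5* in PD+MP run against the other tumors. For *Gzmb* in MP this rests on a count of 0 in 11525 NK-like UMIs, which does not settle the direction.

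Of the 9 listed signaling adapters 4 were tested, and 2 of them, *Fcer1g* and *Tyrobp*, were called and higher in NK-like cells of all 4 tumors. *Fcer1g* (chr1:171229572-171234365) had 1072, 1822, 2267 and 1364 CPM in NK-like cells of BP replicate 1, MP, MP+BP and PD+MP and 104, 30.2, 38.2 and 110 CPM in T-like cells, a log2 fold change of -4.20 ± 0.40 for T-like against NK-like cells (edgeR adjusted p = 3.03e-19). All 25 NK-like cells held it. *Tyrobp* (chr7:30413760-30417585) had 734, 1302, 1700 and 764 CPM against 117, 6.04, 10.9 and 75.8 CPM, a log2 fold change of -4.12 ± 0.46 (edgeR adjusted p = 4.13e-15). Both groups were separate for both genes.

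Macrophages express both adapters, in 99.7% and 99.2% of cells. The 8 macrophage markers had 5 UMIs in all NK-like cells together (55.8 CPM), 3 of *C1qa*, 1 of *C1qc* and 1 of *Lyz2*, with the other 5 markers at 0. In cells without any C1q UMI the log2 fold changes of *Fcer1g* and *Tyrobp* were -4.20 and -4.31. *Cd247*, the CD3ζ chain that serves receptors of both lineages, did not pass the test (-0.28 ± 0.48, edgeR adjusted p = 0.892), nor did *Hcst*, the DAP10 adapter (1.08 ± 0.57, edgeR adjusted p = 0.352). The other 5 were too sparse, and of T-like and NK-like cells *Lck* was detected in 63 and 6, *Sh2d1a* in 51 and 3, *Zap70* in 28 and 2, *Syk* in 3 and 5 and *Sh2d1b1* in 0 and 2.

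NK receptors and NK lineage factors were higher in NK-like cells in 7 of the 8 tested genes, of 23 listed, and the eighth, *Tbx21*, did not pass (-1.61 ± 0.60). The median log2 fold change was -2.48. The lectin-like receptor genes *Klra4* (-6.39 ± 0.60), *Klre1* (-5.02 ± 0.49), *Klrd1* (-2.38 ± 0.40) and *Klrk1* (-2.09 ± 0.50), the last encoding NKG2D, were called, *Klrk1* not without BP replicate 1 and with the opposite order in MP. The 14 Klr genes considered lie within chr6:128778485-130337574, and reads of such similar genes may be split uncertainly between them. *Klrd1* also had UMIs in 59 T-like cells (22.3%) and in 21 of 25 NK-like cells.

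*Klf12* (-3.22 ± 0.51), *Eomes*, a T-box factor of NK cells and effector T cells (-2.59 ± 0.64), and *Il2rb*, the β chain of the interleukin-2 receptor (-1.64 ± 0.34), completed the list, and *Eomes* was not called without BP replicate 1. Outside the list *Irf8*, an interferon regulatory factor needed for NK cell and myeloid development, had 847, 1735, 1133 and 727 CPM in NK-like cells and 6.48, 12.1, 0 and 27.5 CPM in T-like cells. Its log2 fold change was -6.13 ± 0.54 (edgeR adjusted p = 2.04e-22). Others called in the same direction in all 4 tumors were *Plek*, *Arsb*, *Sult2b1*, *1700025G04Rik*, *Gse1*, *Txk*, *AW112010*, *Pde2a* and *Ugcg*, of which *Sult2b1*, *Gse1*, *Txk*, *AW112010* and *Pde2a* were not called without BP replicate 1.

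Of 16 listed cytotoxic genes 6 were tested, and the 4 called were higher in NK-like cells (median log2 fold change over the 6 of -1.84). An NK-like cell lacking either *Ncr1* or *Klrb1c* needed *Nkg7*, *Gzma* or *Trbc2* to be selected. A T-like cell could enter on CD3 genes alone. The part of this selection in the cytotoxic differences was not tested. *Prf1* (chr10:61297833-61304680), which encodes perforin, had 339, 260, 378 and 345 CPM in NK-like cells and 13.0, 24.2, 16.4 and 48.2 CPM in T-like cells, and the groups did not overlap (log2 fold change -3.32 ± 0.59, edgeR adjusted p = 3.40e-06). The NK-like sums held 17716, 11525, 5294 and 55002 UMIs, so the levels in MP and MP+BP rest on very few *Prf1* UMIs. *Gzmb*, which encodes granzyme B, had 621, 0, 756 and 836 CPM against 13.0, 48.3, 191 and 413 CPM. Its groups overlapped because no NK-like cell of MP held it. That MP sum had 11525 UMIs from 6 cells, so the direction in MP is not settled. The *Gzmb* call (-1.70 ± 0.47, edgeR adjusted p = 0.0101) was lost without BP replicate 1 or without MP+BP. *Serpinb9* (-1.98 ± 0.44) and *Serpinb6b* (-2.0 ± 0.50), inhibitors that protect killer cells from granzymes, were called as well, the latter not without BP replicate 1, MP or MP+BP. *Srgn*, the granule proteoglycan found in most leukocytes (0.61 ± 0.33), and *Ctsw*, cathepsin W (-1.05 ± 0.53), did not pass.

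The remaining cytotoxic genes were too sparse to test. *Gzmk*, a granzyme of memory-type CD8 T cells, was detected in 34 T-like cells and 1 NK-like cell. *Fasl*, the death ligand, was found in 32 and 8 cells, *Tnfsf10*, which encodes TRAIL, in 13 and 2, *Gzmc* in 1 and 4, *Gzmm* in 1 and 0 and *Lamp1*, a lysosomal membrane gene, in 43 and 3. After thinning to 1000 UMIs per cell, *Lamp1* was less frequent in T-like cells (4.65%) than in SyS cells (21.8%), and *Gzmm* was found in none of the T-like and 0.343% of the SyS cells. *Gzmd*, *Gzme*, *Gzmf* and *Gzmg* had no UMI in any of the 320 cells. Among secreted factors *Xcl1*, a chemokine for cross-presenting dendritic cells, was higher in NK-like cells by 3.59 on the log2 scale (-3.59 ± 0.50, edgeR adjusted p = 8.45e-10).

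*Ccl5* (chr11:83525778-83530518), a chemokine of effector lymphocytes, differed widely between tumors in both classes. NK-like cells had 5814, 10672, 12656 and 855 CPM and T-like cells 272, 1789, 7729 and 2879 CPM. The order was reversed in PD+MP, and the call (-1.18 ± 0.37, edgeR adjusted p = 0.0347) was lost without BP replicate 1, without MP and without MP+BP. *Ccl4* was also called (-2.70 ± 0.53, edgeR adjusted p = 3.24e-05) but not without MP.

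Ribosomal protein genes, a group looked at after its values were seen, had a median log2 fold change of 0.73 toward T-like cells, and 10 of 82 tested were called higher and none lower. None was called higher in T-like cells without BP replicate 1, without MP+BP, with DESeq2, without the tumor block, with at least 3 marker genes, with no *Adgrb3* UMI or with at least 2 UMIs of the gate genes, the last of which called 1 higher in NK-like cells. Without MP 1 was called, and without PD+MP 50 were. The median stayed positive in each of these fits, and without further scaling it was 0.42 with 6 called. Interferon response and proliferation genes had 1 and 3 tested members and none was called.

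Coreceptors were detected in a minority of T-like cells, *Cd8b1* more often than *Cd8a* or *Cd4*. *Cd8b1* was found in 61, *Cd8a* in 30 and *Cd4* in 31 of 265 T-like cells, and in no NK-like cell. By coreceptor, 68 T-like cells were CD8-like (25.7%, interval 20.5 to 31.4), 27 CD4-like (10.2%, 6.82 to 14.5), 4 had both and 166 had neither, which at a median of 2404 UMIs does not show that they lacked one. BP replicates 1 and 2, MP, MP+BP and PD+MP held 10, 5, 12, 26 and 15 CD8-like cells against 2, 4, 8, 8 and 5 CD4-like cells. CD8-like cells were more numerous in all 5 tumors, and their share of the 95 typed cells was 71.6% (61.4 to 80.4). That interval covers counting error over pooled cells. The CD8-like gate took *Cd8a* or *Cd8b1* and the CD4-like gate only *Cd4*. *Cd8a* by itself was found about as often as *Cd4*, so the excess rests on *Cd8b1*. *Cd4* is also a macrophage transcript, with UMIs in 17.4% of macrophages (median 5229 UMIs), whereas *Cd8b1* was found in 0 of 3190, which allows a share of up to 0.116%.

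CD8-like and CD4-like cells are described without a test, because the genes below were picked after their values had been seen. *Nkg7*, a selecting gene, was found in 50 of 68 CD8-like and 4 of 27 CD4-like cells. *Ccl5* was found in 47 (69.1%, 56.7 to 79.8) and 7 (25.9%, 11.1 to 46.3), and its level was 529, 5003, 2925, 16045 and 8506 CPM in CD8-like and 0, 0, 0, 348 and 745 CPM in CD4-like cells of BP replicates 1 and 2, MP, MP+BP and PD+MP. It was higher in CD8-like cells of all 5 tumors. *Gzmk* was detected in 22 and 2 cells, *Ctsw* in 22 and 1, *Klrd1* in 18 and 1 and *Eomes* in 15 and 0.

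CD4-like cells more often held transcripts of recirculating cells. *Klf2*, a factor that maintains egress receptors, was found in 16 of 27 CD4-like (59.3%, 38.8 to 77.6) and 12 of 68 CD8-like cells (17.6%, 9.47 to 28.8). *S1pr1*, the sphingosine receptor for leaving tissue, was found in 11 and 4 cells and *Il7r* in 15 and 16. All 3 were higher in CPM in the CD4-like cells of each of the 5 tumors. *Cd28* was found in 17 CD4-like and 25 CD8-like cells. CD4-like cells had more UMIs per cell (median 2682 against 2117.5). This held in 4 of the 5 tumors, among them BP replicate 1 (4428 against 2905) and PD+MP (3372 against 2084). The part of depth in these shares was not tested.

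**Figure D3:**
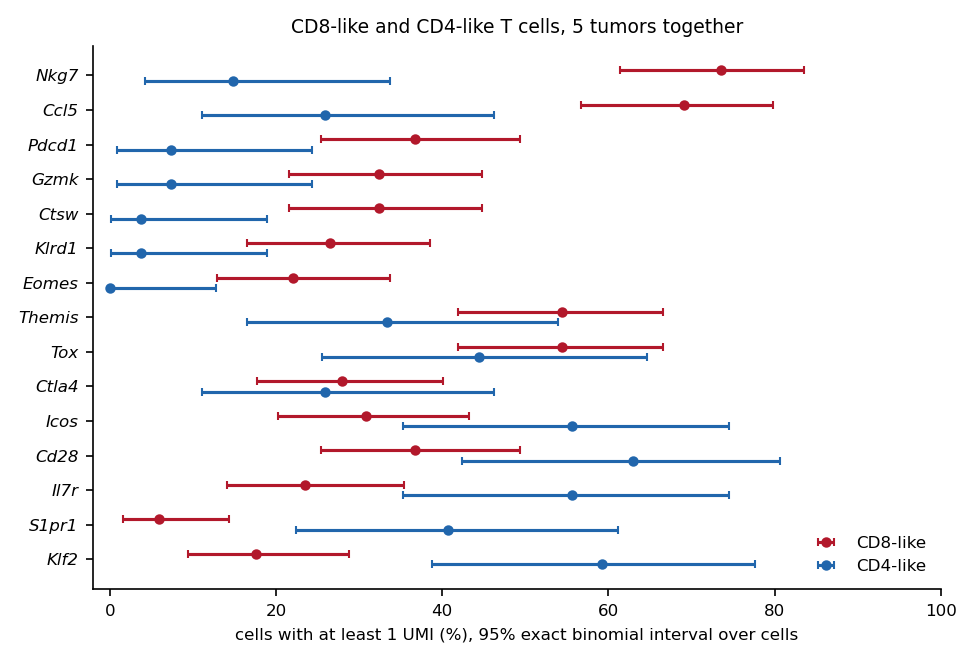
Share of CD8-like (68) and CD4-like (27) cells with at least 1 UMI of 15 genes, in percent, with 95% exact binomial intervals over cells of 5 tumors together. The genes were picked after their values were seen, and *Nkg7* was used to select the cells. The intervals cover counting error over pooled cells, not the spread between tumors, and no test was made.

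Checkpoint genes were detected mostly singly, which at a median of 2376 UMIs per T-like cell does not show that others were absent. *Pdcd1* (chr1:94038305-94052553), which encodes PD-1, was detected in 61 T-like cells (23.0%), in 0 of 25 NK-like cells (upper bound 13.7%), 0 of 3190 macrophages (upper bound 0.116%) and 0.0187% of SyS cells. T-like cells of BP replicates 1 and 2, MP, MP+BP and PD+MP with *Pdcd1* numbered 8, 8, 3, 20 and 22, and its level there was 71.3, 122, 24.2, 142 and 227 CPM. MP was lowest and PD+MP highest. *Ctla4* was found in 61 T-like cells, 15 of which also held *Pdcd1*, and *Lag3* in 14, *Havcr2* (TIM-3) in 12 and *Tigit* in 11.

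Of the 265 T-like cells, 147 held none of *Pdcd1*, *Ctla4*, *Lag3*, *Havcr2* and *Tigit*, 86 held 1, 24 held 2, 7 held 3, 1 held 4 and none all 5. The 8 cells with at least 3 of them came from MP+BP (4) and PD+MP (4). *Pdcd1* was detected in 25 of 68 CD8-like (36.8%, 25.4 to 49.3) and 2 of 27 CD4-like cells (7.41%, 0.910 to 24.3). Among the 61 cells with *Pdcd1*, 38 also held *Ccl5*, 36 *Nkg7*, 33 *Tox*, 17 *Gzmk*, 13 *Gzmb* and 6 *Tcf7*, a factor of stem-like T cells. Whether *Pdcd1* was found with these or other checkpoint genes more often than their shares in all T-like cells would give was not tested.

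*Lag3* and *Havcr2* were no more frequent in T-like cells than in macrophages. After thinning every cell to 1000 UMIs, which left out 7 T-like cells, 17 macrophages and 90 SyS cells, *Lag3* was found in 2.71% of T-like cells, 2.90% of macrophages and 1.94% of SyS cells, and *Havcr2* in 2.33%, 9.33% and 0.0517%. *Pdcd1* (9.69%, 0% and 0.00470%) and *Ctla4* (12%, 1.04% and 0.823%) stood above both. *Tox*, an exhaustion-linked factor found in 111 T-like cells (41.9%), was held after thinning by 25.2% of T-like and 12.4% of SyS cells, where it is expressed too. It missed the threshold between T-like and NK-like cells (1.53 ± 0.51, edgeR adjusted p = 0.0508).

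The activation-induced *Nr4a2*, *Nr4a3* and *Bhlhe40* were the most frequent members of the list beside *Tox*, in 101, 153 and 97 T-like and 17, 15 and 11 NK-like cells. None of the 4 tested members differed between classes by the test. Rarer ones were *Vsir* (32 T-like cells), *Entpd1* (14), *Btla* (9), *Cd200r1* (9), *Cd160* (8), *Tox2* (5) and *Cd244a* (2, against 6 of the NK-like cells). Of these, *Vsir*, *Entpd1* and *Cd200r1* were more frequent in macrophages than in T-like cells after thinning (15.8%, 14.2% and 1.73% against 3.88%, 2.71% and 1.16%), and *Tox2* was more frequent in SyS cells (4.74% against 0.775%).

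Regulatory T cell transcripts were rare. *Foxp3*, the factor that defines these cells, had UMIs in 8 T-like cells, 2 in BP replicate 1, 1 in MP and 5 in PD+MP. Of these 8, 6 also held *Ctla4*, 6 *Ikzf2*, 5 *Tnfrsf18* (GITR), 2 *Cd4* and 1 *Il2ra*. The list's other genes were more widespread than *Foxp3*, with *Ikzf2* in 74 T-like cells, *Capg* in 61, *Tnfrsf18* in 39, *Tnfrsf9* (4-1BB) in 32, *Il2ra* (the interleukin-2 receptor α chain) in 31 and *Tnfrsf4* (OX40) in 20. *Izumo1r* was found in 7, *Ccr8* in 3 and *Il10* in 2, the last below its thinned share in macrophages (0.388% against 4.41%).

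Levels in T-like cells varied between tumors, and each value here rests on 1 tumor, with no test. The 9 naive and memory genes together had 3758, 3140, 5393, 1229 and 1570 CPM in all T and NK cells of BP replicates 1 and 2, MP, MP+BP and PD+MP, with MP highest. *Lef1*, a factor of naive T cells, had 415, 245, 1082, 87.3 and 110 CPM in T-like cells of BP replicates 1 and 2, MP, MP+BP and PD+MP, in 21, 7, 40, 11 and 8 cells. *Satb1*, a chromatin organizer of the T lineage, had 1400, 490, 1704, 355 and 303 CPM. MP and BP replicate 1 were the highest and MP+BP and PD+MP the lowest for *Satb1*. *Il7r* and *Tcf7* had another order, with their highest levels in BP replicate 2 (918 and 184 CPM) and MP second (846 and 169 CPM).

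Among effector genes picked after their values were seen, *Ccl5* had 272, 1518, 1789, 7729 and 2879 CPM in T-like cells, with MP+BP highest and UMIs in 56 of its 76 T-like cells. *Gzmk* had 25.9, 49.0, 12.1, 136 and 172 CPM and was higher in MP+BP and PD+MP, with 18 and 10 cells, than in the other 3 tumors, with 2 each. *Gzmb* reached 413 CPM in PD+MP, against 191 CPM for MP+BP, but 1 cell held 80.0% of its UMIs in T-like cells of PD+MP. Without the top cell of each tumor these levels were 85.2 and 169 CPM, so the order of both tumors rests on 1 cell. *Xcl1*, in contrast, was highest in BP replicate 2 at 526 CPM, against 13.8 to 153 CPM in the other 4 tumors.

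**Figure D4:**
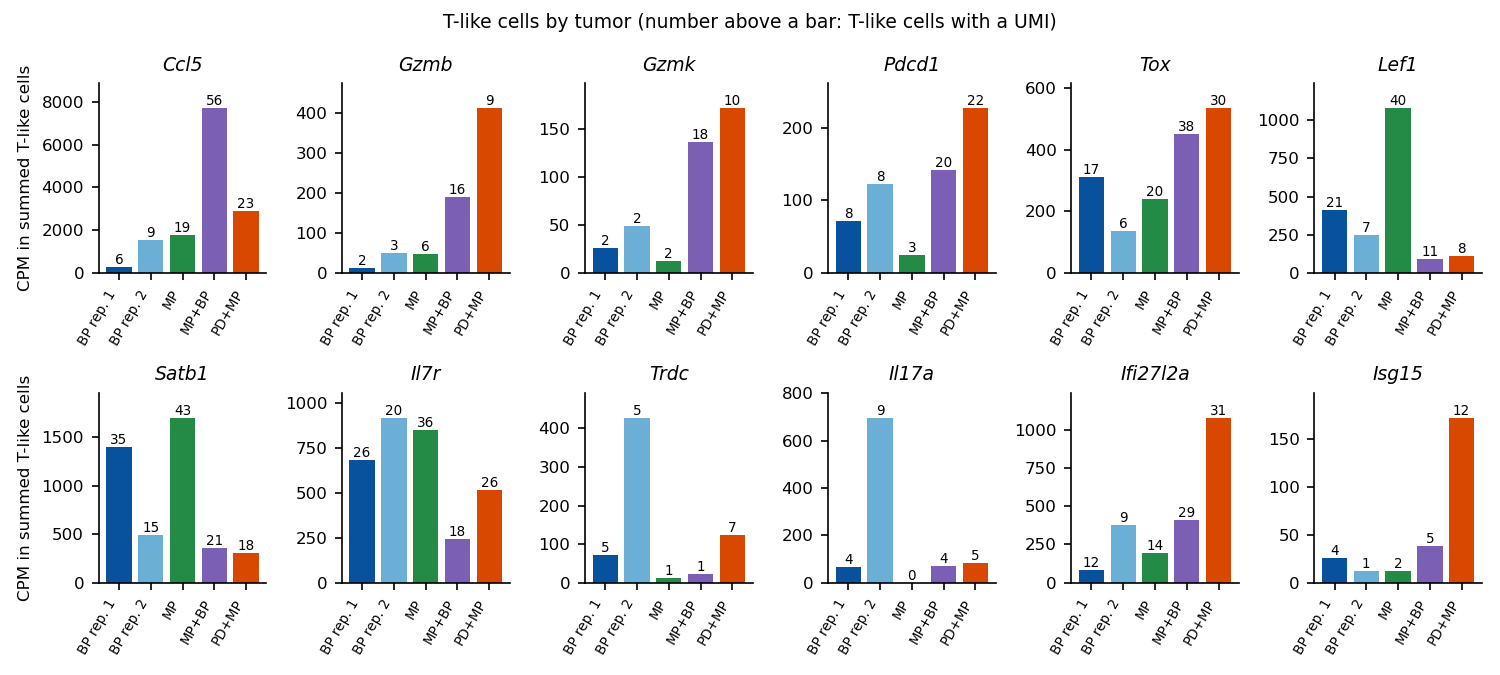
Level of 12 genes in CPM (linear axes from 0) in summed T-like cells of each tumor; numbers above bars are T-like cells with a UMI. *Ccl5* is highest in MP+BP, *Lef1* and *Satb1* in MP, *Trdc* and *Il17a* in BP replicate 2 and *Ifi27l2a* and *Isg15* in PD+MP.

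Transcripts of γδ T cells were highest in BP replicate 2. These cells carry another receptor, whose constant δ segment is *Trdc* (chr14:54142851-54148868), and many make interleukin-17. *Trdc* had 71.3, 428, 12.1, 21.8 and 124 CPM in T-like cells, and *Il17a* 64.8, 698, 0, 71.0 and 82.6 CPM, in 4, 9, 0, 4 and 5 cells. The kinase gene *Blk*, used by interleukin-17-producing γδ T cells, had 51.9, 367, 72.5, 16.4 and 41.3 CPM. All 3 were highest in BP replicate 2, on few cells, also without its top cell (318, 582 and 256 CPM).

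In all, 19 T-like cells held *Trdc*, 5, 5, 1, 1 and 7 by tumor. None of these 19 had a coreceptor UMI, 14 held *Tcrg-C1*, a γ chain segment, 14 *Cd163l1* (the scavenger receptor SCART1), 14 *Rora* and 10 each *Blk* and *Il17a*, and 3 held *Trac*. *Cd163l1* was detected in 3 of the 246 T-like cells without *Trdc*. Of the 22 T-like cells with *Il17a*, 7 held none of *Trdc*, *Tcrg-C1*, *Trdv4* and *Blk*. *Il13*, a type 2 cytokine, was found in no cell.

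Interferon-stimulated genes were highest in PD+MP. *Ifi27l2a* had 84.3, 379, 193, 409 and 1081 CPM in T-like cells, in 12, 9, 14, 29 and 31 cells, and *Isg15* 25.9, 12.2, 12.1, 38.2 and 172 CPM. The 12 listed genes, 11 of them with a UMI, together had 260, 899, 414, 759 and 1667 CPM in all T and NK cells. *Ifi27l2a* was at 0 in all 25 NK-like cells, and after thinning it was found in 24.8% of T-like cells, 19.1% of macrophages and 0.484% of SyS cells. *Mki67* or *Top2a*, genes of dividing cells, were found in 7, 1, 3, 9 and 14 T-like cells and in 7 NK-like cells. After thinning *Mki67* was found in 1.55% of T-like cells against 5.79% of SyS cells and 3.59% of macrophages, so no cycling was read from it.

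Finally, sums over every T and NK cell of a tumor were compared between both sides of the biphasic label, 3 tumors with it and 2 lacking it. Of 3756 genes tested with edgeR, 0 (0%) were called, with 160 at an unadjusted p under 0.05, and DESeq2 also called 0, with 82. Among genes of the functional lists the smallest p-values were those of *Klra8* (-3.28 ± 0.78, edgeR adjusted p = 0.909) and *Prf1* (-1.65 ± 0.51, edgeR adjusted p = 0.942), lower with the label, and *Rgs1* (1.16 ± 0.35) and *Il2ra* (2.18 ± 0.69, edgeR adjusted p = 0.942 for both), higher with it. The dendritic cell marker *H2-Aa* had 4.39 ± 1.21 (edgeR adjusted p = 0.942), and a single cell gave 98.5% and 95.6% of its UMIs in BP replicates 1 and 2. Without MP 5 genes were higher and 32 lower, and without MP+BP 4 were higher and 0 lower. PD+MP also differed from the other 4 tumors in sex-linked transcripts, with 4.45 CPM of *Xist* against 1134 to 2081 and 151 CPM of *Uty* against 0, so sex and histology cannot be told apart there.

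By list, none of 15 tested T lineage, 15 NK, 7 adapter, 9 cytotoxic, 7 checkpoint, 6 regulatory T cell, 9 naive and memory, 9 γδ, 7 cytokine or 4 interferon genes was called for the label. Their median log2 fold changes, biphasic against none, were 0.25, -0.60, -0.09, -0.40, 0.42, 0.28, -0.53, 0.99, 0.52 and -0.60, against -0.02 over all tested genes. With 2 tumors on 1 side and 31 to 83 cells behind each sum, no gene passed the test, which does not show that the T and NK cells of both kinds of tumor were alike.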

How the data were processed

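Single cell libraries of 5 mouse tumors were counted with Cell Ranger (version 7.2.0, mm10 per the labels and file headers) by the authors, who deposited unnormalized UMI counts for each gene in every called cell. Matrices held 89996321 to 118649103 UMIs per tumor and 32286 features. Members and gene lists were chosen with earlier results of these data known, and 166 genes in 14 lists were used.

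Selected cells of a class were added up within each tumor, and the sums entered the quasi-likelihood test of edgeR 4.0.16 with TMM scaling, its default filter on low counts and Benjamini-Hochberg adjustment over all genes tested (threshold 0.05). T-like and NK-like sums of a tumor were paired by a tumor block. A minimum of 10 cells of each class had been set, which only PD+MP met, so a minimum of 3 was used after seeing this, and the planned test could not be run. Levels without the cell holding the most UMIs were also added after seeing the data. For the biphasic label, p-values measure the spread between tumors, of which both BP may share an animal. For T-like against NK-like cells they measure the spread of the difference within tumors, with 3 to 11 NK-like cells per sum. Shares were compared by exact permutation, with Clopper-Pearson intervals. Coordinates come from GENCODE M21 (GRCm38) and promoters from RefSeq. CPM is UMIs of a gene per 1000000 UMIs of the sum. Named genes were the rule genes, the markers, up to 4 called members of each list with the largest change, all detected members of the coreceptor, checkpoint, regulatory, cytotoxic and adapter lists, and the 10 highest and 10 lowest called genes outside the lists with one direction in all pairs; others were named after their values were seen. Doublets were scored with Scrublet in scanpy 1.11.5, and the alternatives were DESeq2 1.42.0, no extra scaling, no filter, no block, stricter cell rules and leaving out each tumor. The scripts were tested on simulated data. Values of some genes are not reported here.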

Additional observations from a re-analysis of the deposited data

How the results depend on the processing

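For T-like against NK-like cells (63 genes higher in T-like, 35 in NK-like), DESeq2 called 22 higher in T-like, no scaling beyond total counts 58 higher in NK-like, no filter on low counts 141 higher in T-like, at least 3 marker genes 23 and 19, no *Adgrb3* UMI 20 higher in T-like, and at least 2 UMIs of the gate genes 22 and 19. Without the replicate block, which here pairs classes of a tumor, 41 and 23 were called. Leaving out 1 tumor gave 35 to 93 and 21 to 42. For the biphasic label, no filter on low counts called 19 higher and 39 lower, and leaving out 1 tumor 0 to 5 and 0 to 32. The share difference was -0.280 to -0.00137 percentage points and the T-like share difference 5.14 to 11.6 when leaving out 1 tumor, and no permutation p could fall below 0.2. Of 46 named genes, 22 kept their call and all kept their direction in every setting fitted. Of 603 values, 515 kept the call, 88 lost it and 0 reversed. Of 96 levels of single genes or marker lists, 64 stayed within their counting interval without the cell holding the most UMIs and 32 did not, all lower by construction. The cause of the other changes was not tested. The comparison had 25 NK-like cells in 4 tumors, and the selected cells had a median of 2265.5 UMIs. Transcripts under 33.5 CPM in the pooled NK-like cells lie below the limit that a count of 0 allows. That limit is higher in the sum of a single tumor, which held 17716, 11525, 5294 and 55002 UMIs in BP replicate 1, MP, MP+BP and PD+MP.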
